A study of Mus musculus with 12 samples.

Results

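The genes described here build and steer the actin, myosin and tubulin cytoskeleton: Actb, Actg1, Tmsb4x, Pfn1, Cfl1, Myl6, Rac1 and Tuba1b. They were picked by symbol, 8 genes of 38924 entries in the deposited table, with their difference between the 2 groups already known. Their values in that comparison are therefore a description and carry no test. RNA was sequenced from mouse haematopoietic stem and progenitor cells, which form blood in the marrow, taken from male C57BL/6 donors 4 to 5 weeks old and enriched by removing marrow cells with surface proteins of mature lineages. For 6 brain-recovered libraries (replicates 4, 5, 6, 10, 11 and 12) the cells had been injected into a vein of mice 24 h after cerebral ischaemia and reperfusion, a model of stroke, and were taken back out of the brain 24 h later. For 6 naive libraries (replicates 1, 2, 3, 7, 8 and 9) the same kind of cells had not been injected. The labels state neither how injected cells were told apart from cells of the host's brain nor whether replicates came from separate animals or preparations. A p-value here rests on a spread between libraries that is shared by entries of like level, not on the gene's own. Part of that spread may be technical. The comparison asks how transcripts of cells that had reached the injured brain differ from those of cells that had not been injected.

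Actin monomers assemble into filaments that push the cell edge forward, and myosin pulls on those filaments to contract the cell body. Thymosin beta 4 holds monomers in reserve, profilin delivers them to growing ends and cofilin severs old filaments. The small GTPase Rac1 switches on branched actin assembly at the leading edge, and microtubules of alpha- and beta-tubulin carry cargo and orient the cell. Blood progenitors and leukocytes use this machinery to leave vessels and crawl through tissue, and nearly every other cell type expresses the same genes.

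Deposited values are reads per length of the gene model times 1 constant per library, so levels of different genes within a library can be set side by side. They carry no unit name and are called units here, and they are not RPKM (reads per kilobase of length and per 1000000 reads). Against RPKM computed from the reads behind the table, they were 0.553 to 17.1 times as large in brain-recovered libraries, with the 2 highest factors in replicates 6 (17.1) and 10 (15.0), and 0.553 to 1.46 times as large in naive libraries. A level set across libraries therefore depends on the authors' constant, and differences rescaled to RPKM are given beside the deposited ones. Because that length can be recovered from the values, each entry was compared with the exons of the gene on its label. It fitted for 6 of the 7 genes found with values. The entries of Actb (ENSMUSG00000029580, chromosome 5, 142903115 to 142906754 in GRCm38, minus strand), Tmsb4x (ENSMUSG00000049775, chromosome X, 167207093 to 167209315, minus strand) and Tuba1b (ENSMUSG00000023004, chromosome 15, 98931425 to 98934565, minus strand) had the summed exon length of all annotated transcripts, 2679, 1371 and 1875 bases. Those of Myl6 (ENSMUSG00000090841, chromosome 10, 128490860 to 128494145, minus strand; 665 bases) and Cfl1 (ENSMUSG00000056201, chromosome 19, 5490455 to 5495201, plus strand; 1148 bases) had the length of 1 transcript. Pfn1 (ENSMUSG00000018293, chromosome 11, 70651850 to 70654644, minus strand) had the 1026 bases of some of its transcripts together. The entry labelled Rac1 (ENSMUSG00000001847, chromosome 5, 143503634 to 143528036, minus strand) had 2652 bases, a length that no combination of its transcripts gave. No checked gene up to 40 places away in alphabetical order of symbol had that summed exon length. Single transcripts of those genes and other genes were not compared. The Rac1 values are given under these limits. Actg1, cytoplasmic gamma-actin, did not appear under its symbol, the entry with its identifier was 0 in all 12 libraries, and its annotation stood in another row, so it was left out.

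Some of these genes share sequence with relatives, and how the authors placed such reads is not given in the sources used here. Of the 50-base windows of the coding transcript, 83.1% of those of Tuba1b also occur in transcripts of other genes, foremost Tuba1c. The share was 53.2% for Myl6, all of it with 5 pseudogenes, 20.5% for Cfl1, 18.1% for Rac1 and 14.2% for Actb. Tmsb4x and Pfn1 shared no window. Values of Tuba1b and Myl6 are therefore the least certain to belong to the named gene alone.

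Promoters are shown for 3 of the genes that were high together in the same brain-recovered libraries, as the 250 bases before a start in RefSeq (GRCm38.p6), on the gene's strand. Motifs are in capitals. GGGCGG, the core of the GC box bound by Sp1-type factors, was searched on both strands and reads CCGCCC on the other one. The CArG box, the site of serum response factor, which controls many actin genes, was searched as well. The windows lie at chrX:167209219-167209468 for Tmsb4x, chr15:98934391-98934640 for Tuba1b and chr10:128493010-128493259 for the second start of Myl6. The Myl6 window, with its motifs, lies inside the gene span given above, and the Tmsb4x and Tuba1b windows overlap theirs in part.
Tmsb4x: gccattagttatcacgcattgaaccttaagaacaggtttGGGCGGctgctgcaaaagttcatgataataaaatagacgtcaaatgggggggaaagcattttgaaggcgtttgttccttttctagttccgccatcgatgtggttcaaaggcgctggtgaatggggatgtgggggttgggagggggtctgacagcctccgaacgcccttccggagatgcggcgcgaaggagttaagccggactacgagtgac
Tuba1b: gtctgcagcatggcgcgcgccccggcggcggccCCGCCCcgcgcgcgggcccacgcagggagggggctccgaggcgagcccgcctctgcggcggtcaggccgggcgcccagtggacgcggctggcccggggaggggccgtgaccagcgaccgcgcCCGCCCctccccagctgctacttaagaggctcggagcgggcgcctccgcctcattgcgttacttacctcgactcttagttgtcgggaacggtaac
Myl6: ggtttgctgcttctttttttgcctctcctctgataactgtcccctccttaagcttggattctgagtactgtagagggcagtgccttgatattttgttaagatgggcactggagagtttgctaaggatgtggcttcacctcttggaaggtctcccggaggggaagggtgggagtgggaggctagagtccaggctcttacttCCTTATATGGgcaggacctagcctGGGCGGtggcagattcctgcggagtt
The Myl6 window holds a CArG box that begins 50 bases before the start and GGGCGG at 26 bases. The other Myl6 start, at chr10:128493887-128494136, holds neither. Among the 6 windows that the table gives for 5 of the genes (Actb and Rac1 had none), 1 held a CArG box and 4 held GGGCGG, beside 1.47% and 32.7% of all 32851 promoter windows of the same length. The motifs in capitals do not overlap each other, and a match is a description of the letters, not evidence of binding.

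Actb, cytoplasmic beta-actin, had the highest median value of the 7 genes in both groups, 5019 units in brain-recovered and 20.7 units in naive libraries. In brain-recovered replicates 4, 5, 6, 10, 11 and 12 it stood at 3635, 6403, 17881, 39162, 1518 and 61.4 units. In naive replicates 1, 2, 3, 7, 8 and 9 it stood at 128, 27.4, 34.6, 6.99, 6.67 and 14.0 units. Brain-recovered replicates 4, 5, 6, 10 and 11 thus lay above every naive library, while replicate 12 lay below naive replicate 1. The difference of mean log2(value + 1), brain-recovered minus naive, was 7.26 ± 1.49 (limma SE, n = 6 per group). This SE, like the others given here, comes from the spread shared by entries of like level. Actb was above 0 in all 12 libraries, and the read numbers behind it ran from 208 to 91224 in brain-recovered and from 10 to 482 in naive libraries. In bulk samples, fewer cells that express a gene and less of its RNA per cell cannot be told apart.

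**Figure D1:**
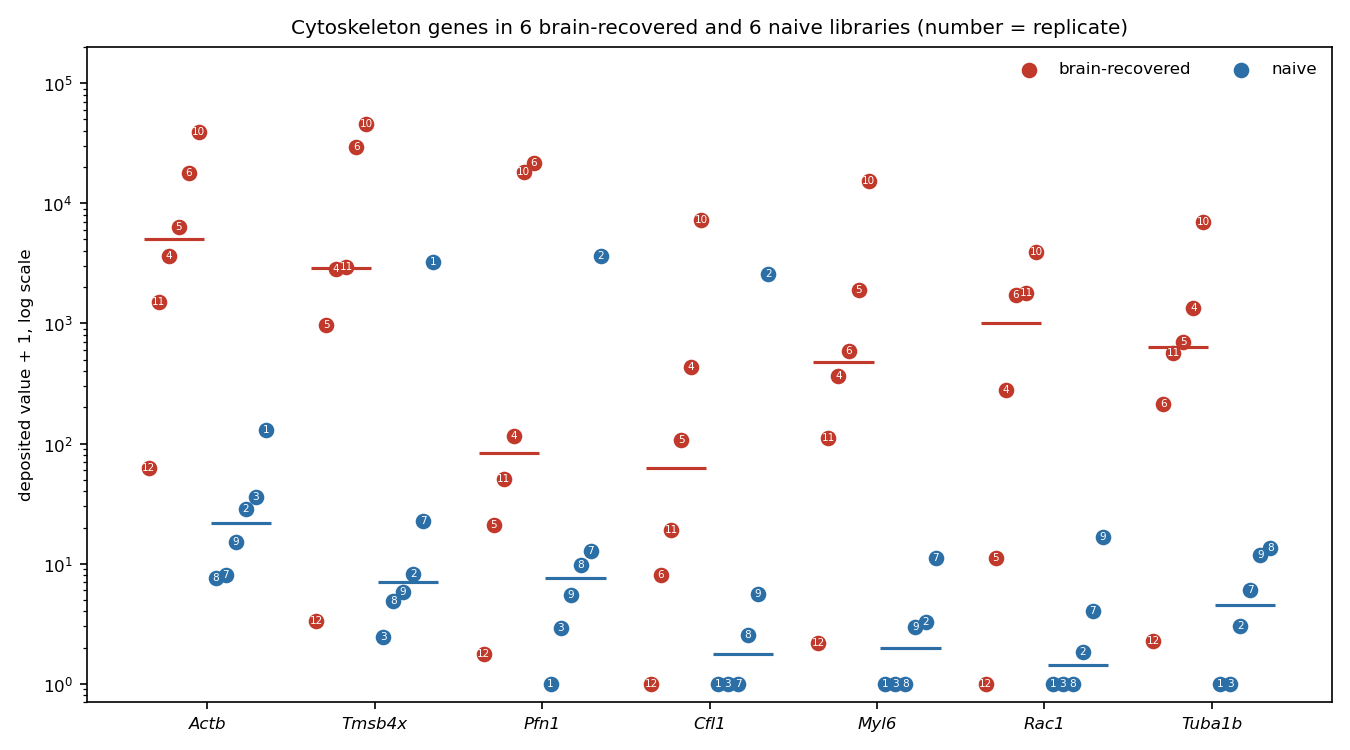
Value of each of the 7 genes (deposited value + 1, log axis) in each brain-recovered (red) and naive (blue) library, with the replicate number inside the point; the lines mark group medians. Brain-recovered replicate 12 is the lowest red point of every gene, and naive replicate 1 (Tmsb4x) and naive replicate 2 (Pfn1, Cfl1) reach the brain-recovered range.

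Tmsb4x, which encodes thymosin beta 4 and holds actin monomers in reserve, stood above Actb in 3 brain-recovered libraries. Its values were 2811, 964, 29496, 46120, 2920 and 2.31 units in brain-recovered replicates 4, 5, 6, 10, 11 and 12. They were 3261, 7.17, 1.44, 21.4, 3.91 and 4.81 units in naive replicates 1, 2, 3, 7, 8 and 9. The groups overlapped, since naive replicate 1 stood above brain-recovered replicates 4, 5 and 11, and only replicates 6 and 10 lay above every naive library. The log2 difference was 6.61 ± 1.49 (limma SE). The naive value of 3261 units rested on 6269 reads, more than in 4 of the brain-recovered libraries.

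Pfn1 encodes profilin 1, the widely expressed profilin. It stood at 114, 20.2, 21778, 18357, 49.5 and 0.771 units in brain-recovered replicates 4, 5, 6, 10, 11 and 12. In naive replicates 2, 3, 7, 8 and 9 it stood at 3631, 1.92, 11.7, 8.70 and 4.50 units, and it was listed at 0 in naive replicate 1. Of the 7 genes, Pfn1 spread most among the brain-recovered libraries: leaving out replicate 12, the highest was 1080 times the lowest, against 25.8 times for Actb. The log2 difference was 3.92 ± 1.44 (limma SE). It was 2.58 without brain-recovered replicate 6, 2.63 without brain-recovered replicate 10 and 5.53 without naive replicate 2.

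Cfl1 encodes cofilin 1, the filament-severing protein that most cells use. Its values were 433, 105, 6.98, 7234 and 18.1 units in brain-recovered replicates 4, 5, 6, 10 and 11, and it was listed at 0 in replicate 12. In naive replicates 2, 8 and 9 it had 2602, 1.56 and 4.60 units, and it was listed at 0 in naive replicates 1, 3 and 7. Brain-recovered replicate 10 was the only library above naive replicate 2. The log2 difference of 3.40 ± 1.36 (limma SE), the smallest of the 7, was 2.02 without brain-recovered replicate 10 and 5.16 without naive replicate 2.

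The same naive library, replicate 2, therefore held both high values of Pfn1 and Cfl1. These 2 genes took 0.674% and 0.540% of its reads, a larger share than either took in any other library. Tmsb4x in that library was at 7.17 units and Actb at 27.4 units. In naive replicate 1 the reverse was seen, with Tmsb4x at 0.539% of the reads while Pfn1, Cfl1, Myl6, Rac1 and Tuba1b were all listed at 0. Brain-recovered libraries were uneven in the same way: Pfn1 was 3121 times Cfl1 in replicate 6 and 0.192 times Cfl1 in replicate 5.

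Myl6, the essential light chain of non-muscle and smooth muscle myosin, had the largest log2 difference of the 7 genes, 7.28 ± 1.39 (limma SE). It stood at 361, 1903, 587, 15242, 111 and 1.19 units in brain-recovered replicates 4, 5, 6, 10, 11 and 12. It stood at 2.27, 10.1 and 1.98 units in naive replicates 2, 7 and 9 and was listed at 0 in naive replicates 1, 3 and 8. No naive library passed 10.1 units, and 5 of 6 brain-recovered libraries lay above all of them.

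Rac1, the GTPase of the leading edge, had 276, 10.2, 1728, 3968 and 1799 units in brain-recovered replicates 4, 5, 6, 10 and 11 and was listed at 0 in replicate 12. Naive replicates 2, 7 and 9 had 0.855, 3.02 and 15.7 units, and naive replicates 1, 3 and 8 were listed at 0. Replicates 4, 6, 10 and 11 lay above every naive library, and replicate 5 lay below naive replicate 9. The log2 difference was 6.36 ± 1.37 (limma SE). Rac1 was the highest of the 7 genes by share of reads in brain-recovered replicate 11, at 0.204%, although at 1799 units it stood below Tmsb4x per length there.

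Tuba1b, a widely expressed alpha-tubulin, had 1350, 695, 210, 7047, 568 and 1.27 units in brain-recovered replicates 4, 5, 6, 10, 11 and 12. It had 2.02, 4.99, 12.4 and 10.9 units in naive replicates 2, 7, 8 and 9 and was listed at 0 in naive replicates 1 and 3. The 5 brain-recovered libraries other than replicate 12 were thus above every naive library. The log2 difference was 6.53 ± 1.41 (limma SE). Actb was 2.67 to 9.21 times Tuba1b in brain-recovered replicates 4, 5, 10 and 11, 85.0 times in replicate 6 and 48.5 times in replicate 12.

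By group medians the order in brain-recovered libraries was Actb, Tmsb4x, Rac1 (1002 units), Tuba1b (632), Myl6 (474), Pfn1 (81.7) and Cfl1 (61.6). In naive libraries it was Actb, Pfn1 (6.60 units), Tmsb4x (5.99), Tuba1b (3.50), Myl6 (0.992), Cfl1 (0.778) and Rac1 (0.427). In both groups the ranges of all neighbours in these orders overlapped, so the order is not larger than the spread between libraries. For Actb and Tmsb4x, the genes with no value at 0, the SD of log2(value + 1) was 3.28 and 4.95 among brain-recovered and 1.54 and 3.80 among naive libraries. For Pfn1 and Cfl1, which have values at 0, it was 5.47 and 4.53 among brain-recovered and 4.15 and 4.43 among naive libraries. The limma SE does not carry these spreads of single genes.

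Rescaled to RPKM, an alternative chosen after seeing the data, every one of the 7 differences was smaller. The log2 difference was 5.11 for Actb, 4.48 for Tmsb4x, 5.25 for Myl6, 4.30 for Rac1 and 4.56 for Tuba1b, and 1.82 for Pfn1 and 1.47 for Cfl1. On that scale Actb, Myl6 and Tuba1b still had 5 brain-recovered libraries above every naive one and Rac1 had 4. Tmsb4x, Pfn1 and Cfl1 had 0, since naive replicate 1 for Tmsb4x and naive replicate 2 for Pfn1 and Cfl1 then stood above every brain-recovered library. No entry passed a limma adjusted p under 0.05 on that scale (161 higher and 575 lower at an unadjusted p under 0.05), and the median difference over all entries was -0.53.

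Together the 7 genes took 0.501%, 0.683%, 0.677%, 1.53%, 0.600% and 0.0311% of the reads in brain-recovered replicates 4, 5, 6, 10, 11 and 12. They took 0.580%, 1.23%, 0.0167%, 0.00577%, 0.00448% and 0.0110% in naive replicates 1, 2, 3, 7, 8 and 9. The low shares rested on few reads. In brain-recovered replicate 12, 217 reads gave a 95% Wilson interval of 0.0272% to 0.0355%, and in naive replicate 8, 32 reads gave 0.00317% to 0.00632%, intervals that cover counting error only. By share of reads, naive replicates 1 and 2 were therefore within the brain-recovered range, through Tmsb4x in replicate 1 and through Pfn1 and Cfl1 in replicate 2. All 7 genes lay at 100 units or more in brain-recovered replicates 4 and 10, 6 of 7 did in replicate 6, 5 of 7 in replicates 5 and 11, and none in replicate 12. In naive replicates 1 and 2 it was 2 of 7 each, and in the other naive libraries none. Of the 17689 entries in the limma fit below, 1.70% to 5.20% lay there per brain-recovered library and 0.170% to 1.57% per naive library.

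**Figure D2:**
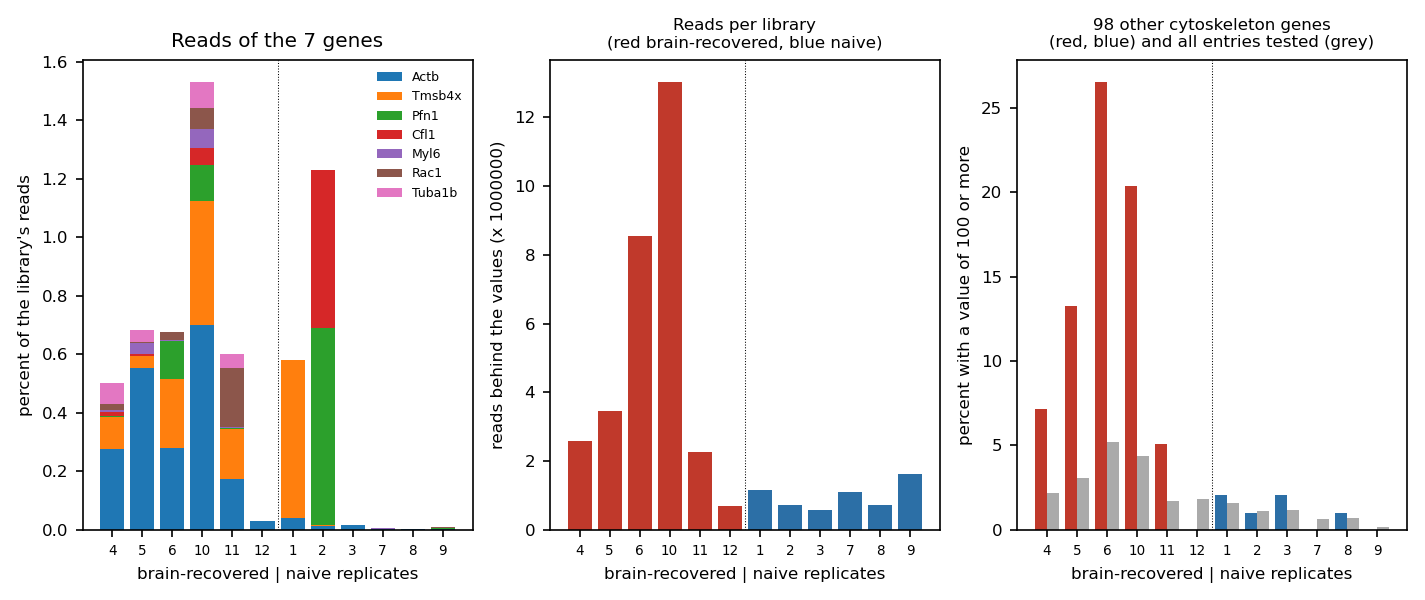
Left, percent of each library's reads taken by each of the 7 genes; middle, reads behind the values of each library; right, percent of the 98 other cytoskeleton genes and of all entries tested (grey) at 100 units or more. Brain-recovered replicate 10 has the most reads and the largest share for the 7 genes, and naive replicate 2 follows with 1.23% from Pfn1 and Cfl1.

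Reads per library ran from 698739 to 13020210 in the brain-recovered group and from 586283 to 1613307 in the naive group, and the 2 deepest libraries, brain-recovered replicates 6 and 10, also held the highest values of Actb, Tmsb4x and Pfn1. Entries above 0 numbered 4380 to 22727 in brain-recovered and 5067 to 23184 in naive libraries. The 4 libraries with fewer than 10000 such entries were brain-recovered replicate 12 and naive replicates 1, 2 and 3. They include the lowest brain-recovered library for all 7 genes and the 3 naive values of 2602 to 3631 units. Without these 4 libraries the median log2 difference of the 7 genes was 7.0, against 6.53 with them, and that of Actb was 9.60. In libraries numbered 1 to 6 alone it was 7.15, and in those numbered 7 to 12 alone 5.57. The part of depth and of these libraries in the differences was not tested.

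In the limma fit over all 17689 entries with at least 1 unit in at least 6 libraries, 65 entries were higher in brain-recovered libraries at an adjusted p under 0.05 (0.367% of those tested) and none was lower (31 at an unadjusted p under 0.05). Actb, Tmsb4x, Myl6, Rac1 and Tuba1b were among the 65, and Pfn1 and Cfl1 were not. With quantile normalization, with equal sums of values per library or with RPKM, no entry was called higher or lower. Since the genes were chosen on this comparison, nothing is read from that count. The median log2 difference was 6.53 for the 7 genes, beside 0.64 for all entries tested, of which 74.5% were above 0. In Actb, Myl6 and Tuba1b, 5 brain-recovered libraries lay above every naive one, which held for at least 5 libraries in 1.75% of all entries tested. In none of the 7 did all 6 lie above every naive library (0.147% of all entries). Across the 12 libraries, the correlation of each gene's log2 values with the mean of the 7 ran from 0.745 (Cfl1) to 0.949 (Myl6), a description in which each gene is part of that mean.

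Of 114 other genes of the cytoskeleton, listed by role, 98 could be tested: 12 had no usable label and 4 (Tmsb10, Twf2, Tbcb and Tbcc) did not reach 1 unit in 6 libraries. Of the 98 entries, 62 had a length that fitted the labelled gene. Of the genes named below, Actr3, Rhoc, Arhgdib, Rac2, Tubb5, Tuba1c, Tubb6, Vim, Lmna, Actg2 and Acta2 had no fitting length and are given under the deposited label. None of the 98 was higher or lower in brain-recovered libraries at a limma adjusted p under 0.05. At an unadjusted p under 0.05, 30 were higher and 0 lower, beside 6.08% and 0.175% of all entries tested. These counts were 13 and 1 with quantile normalization, 5 and 4 with equal library totals and 5 and 3 with RPKM. Their median log2 difference was 1.17, with 83 above 0 and 15 below, against the median of 0.64 over all entries. These directions depend on the scaling: 64 of the 98 were above 0 with quantile normalization (median 0.39), 51 with library totals (median 0.05) and 40 with RPKM (median -0.20), where the median over all entries was -0.06, -0.28 and -0.53. As RPKM, the genes named below for their size within a list stood between -2.69 (Acta2) and 2.89 (Tubb5). The other cytoskeleton genes ran from -1.88 to 4.88, and 5 of the 7 chosen genes, all but Pfn1 and Cfl1, had differences above that range. The 7 were chosen with this difference known, so nothing is read from that gap.

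**Figure D3:**
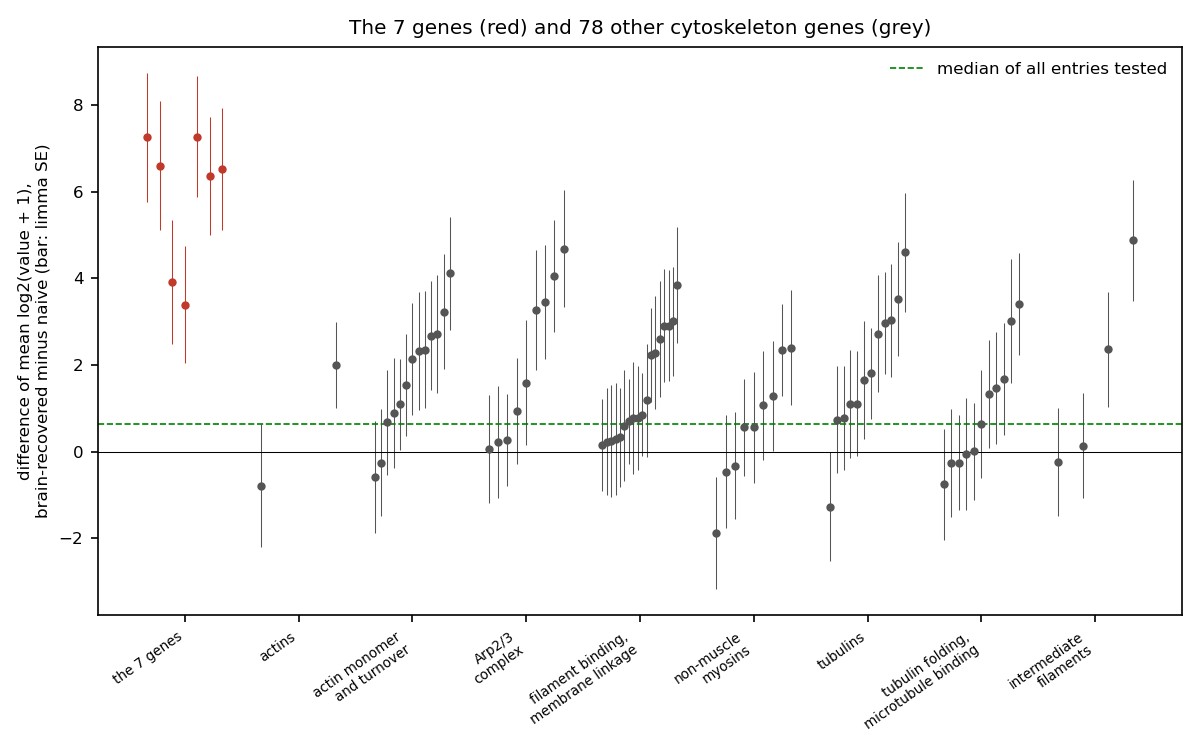
Difference of mean log2(value + 1), brain-recovered minus naive, for the 7 genes (red) and 78 of the other cytoskeleton genes, in 8 lists by role (grey), with limma SE bars; the dashed line is the median of all entries tested, 0.64. All of the 7 genes but Pfn1 and Cfl1 lie above the highest of the others, 4.88, but the 7 were chosen with this difference known.

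Among proteins that handle actin monomers and filament turnover, 13 genes were tested and 11 had differences above 0 (10 with quantile normalization, 9 with library totals and 7 with RPKM). Cfl2, the muscle-type cofilin, had the largest at 4.12 ± 1.31 (limma SE, adjusted p = 0.21). Its 2870 units in brain-recovered replicate 10 compared with at most 86.3 units in the other brain-recovered libraries and at most 14.5 units in naive ones. Coro1a, the coronin of leukocytes, followed at 3.23 ± 1.34 (limma adjusted p = 0.602), with 2218 units in brain-recovered replicate 10 and 213 units in replicate 6, and stood at 2.11 without replicate 10. The Arp2/3 complex, which branches filaments downstream of Rac1, had 9 of 9 subunits with differences above 0, but 4 of 9 with quantile normalization, with library totals and with RPKM. Actr3 reached 4.69 ± 1.35 (limma adjusted p = 0.105) and Arpc1b 4.05 ± 1.30 (limma adjusted p = 0.223). In brain-recovered replicates 6 and 10, Actr3 had 5942 and 7213 units and Arpc1b had 1719 and 1253 units, and both were at 27.8 units or less in the other libraries.

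All 18 tested genes of filament binding and membrane linkage had differences above 0, though their median of 0.82 was close to that of all entries, and 14 of 18 were above 0 with quantile normalization, 9 with library totals and 8 with RPKM. Tln1, talin, which ties integrins to actin, had the largest at 3.85 ± 1.33 (limma adjusted p = 0.319), with 342 and 1616 units in brain-recovered replicates 5 and 6. For Tln1, 5 brain-recovered libraries lay above every naive one. Actn4, an alpha-actinin that bundles filaments, had 3.01 ± 1.25 (limma adjusted p = 0.611). The other non-muscle myosins had a median of 0.56 (0.25 with quantile normalization, -0.54 with library totals and -0.63 with RPKM). Myl6, chosen with its difference known, had 7.28. Myo1g, a myosin of blood cells, was at 9917 units in brain-recovered replicate 10 and at 30.5 units or less in every other library. Myl9, a regulatory light chain, stood at 0 to 32.7 units in brain-recovered libraries and was listed at 0 in 5 of 6 naive ones.

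Rhoc had a log2 difference of 3.81 ± 1.30 (limma adjusted p = 0.30), from 2763 and 2306 units in brain-recovered replicates 5 and 6, and stood at -1.51 in libraries numbered 7 to 12 alone. Arhgdib, a GDP dissociation inhibitor of blood cells, had 3.44 ± 1.31 (limma adjusted p = 0.489), a value that fell to 2.12 when brain-recovered replicate 10 was left out. Rac2, the blood-cell relative of Rac1 and a gene picked out after its values were seen, did not pass 27.0 units in brain-recovered or 30.5 units in naive libraries.

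Among the other tubulins, 11 of 12 had differences above 0 (10 with quantile normalization, 8 with library totals and 7 with RPKM). Their median was 1.73, beside 6.53 for Tuba1b, which was chosen with its difference known. Tubb5, a widely expressed beta-tubulin, had 4.60 ± 1.36 (limma adjusted p = 0.131). Its values were 726, 557, 76.6, 166, 5.62 and 23.8 units in brain-recovered replicates 4, 5, 6, 10, 11 and 12 and at most 21 units in naive libraries. Tubb4a, a beta-tubulin of neurons and oligodendrocytes, had 3.52 ± 1.31 (limma adjusted p = 0.454) and 7079 units in brain-recovered replicate 6, without which it stood at 2.02. Tuba1c, which shares the most sequence with Tuba1b, stood at 36.8, 11.4, 849, 1242, 10.5 and 0 units in brain-recovered replicates 4, 5, 6, 10, 11 and 12, so it was high in 6 and 10 but not in replicates 4 and 5, where Tuba1b had 1350 and 695 units. Of the genes of tubulin folding and microtubule binding, 7 of 11 had differences above 0 (5 with quantile normalization, 3 with library totals and 2 with RPKM). Stmn1, which destabilises microtubules, led with 3.41 ± 1.19 (limma adjusted p = 0.324) and was listed at 0 in 5 of 6 naive libraries. Mapt, tau, had 3.02 ± 1.42 (limma adjusted p = 0.719), from 2906, 2470 and 982 units in brain-recovered replicates 6, 10 and 11.

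Intermediate filaments had 4 testable genes. Vim, vimentin of mesenchymal and blood cells, had the largest difference of all 98 genes, 4.88 ± 1.39 (limma adjusted p = 0.104), with 1912, 6337 and 17240 units in brain-recovered replicates 5, 6 and 10 and at most 14.1 units in naive libraries. Lmna, a nuclear lamin, had 2.36 ± 1.33 (limma adjusted p = 0.878), 1.19 without brain-recovered replicate 6 and -0.23 in libraries numbered 7 to 12 alone. The actins besides Actb had 2 testable genes. Actg2, smooth muscle gamma-actin, had 2.00 ± 0.99 (limma adjusted p = 0.765) and stayed at 17.6 units or less. Acta2, smooth muscle alpha-actin, had -0.79 ± 1.42 (limma adjusted p = 0.992), a difference that stood at 0.19 when brain-recovered replicate 12 was left out. It was at 13075 units in brain-recovered replicate 6 and between 0 and 27.0 units in the other brain-recovered libraries, against 10.4 to 107 units in naive libraries.

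A value of 100 units or more, a threshold set after the values were seen and about 10 times the median value above 0, was reached in a brain-recovered library by 45 of the 98 (13.6% of all entries tested) and in exactly 1 such library by 25 (10.8% of all entries). In 3 or more brain-recovered libraries it was reached by 6 genes, Actr2, Arpc5, Tpm3, Vim, Mapt and Tubb5 (1.0% of all entries), and in a naive library by 4, Arpc5, Rac3, Acta2 and Lmna (4.4% of all entries). By library the counts were 7, 13, 26, 20, 5 and 0 of 98 in brain-recovered replicates 4, 5, 6, 10, 11 and 12, and 2, 1, 2, 0, 1 and 0 in naive replicates 1, 2, 3, 7, 8 and 9. Of all entries tested, 2.17%, 3.09%, 5.20%, 4.36%, 1.70% and 1.80% reached it in the same brain-recovered libraries. The shares in the same naive libraries were 1.57%, 1.10%, 1.20%, 0.667%, 0.678% and 0.170%. Cdc42, a GTPase of cell polarity, shows the extreme, with 24447 units in brain-recovered replicate 6 and at most 39.7 units elsewhere. Arpc2 was at 28559 units in brain-recovered replicate 6 and listed at 0 in replicate 10, whereas Actr3 of the same complex was high in both. Tubb6 was at 18953 units in brain-recovered replicate 10 and at 43.8 units or less elsewhere. These 3 genes were picked out after their values were seen. Of the 7 genes, chosen with their difference known, Actb, Tmsb4x, Myl6 and Tuba1b were each at or above 100 units in 5 brain-recovered libraries. Rac1 was so in 4, and Pfn1 and Cfl1 were so in 3.

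**Figure D4:**
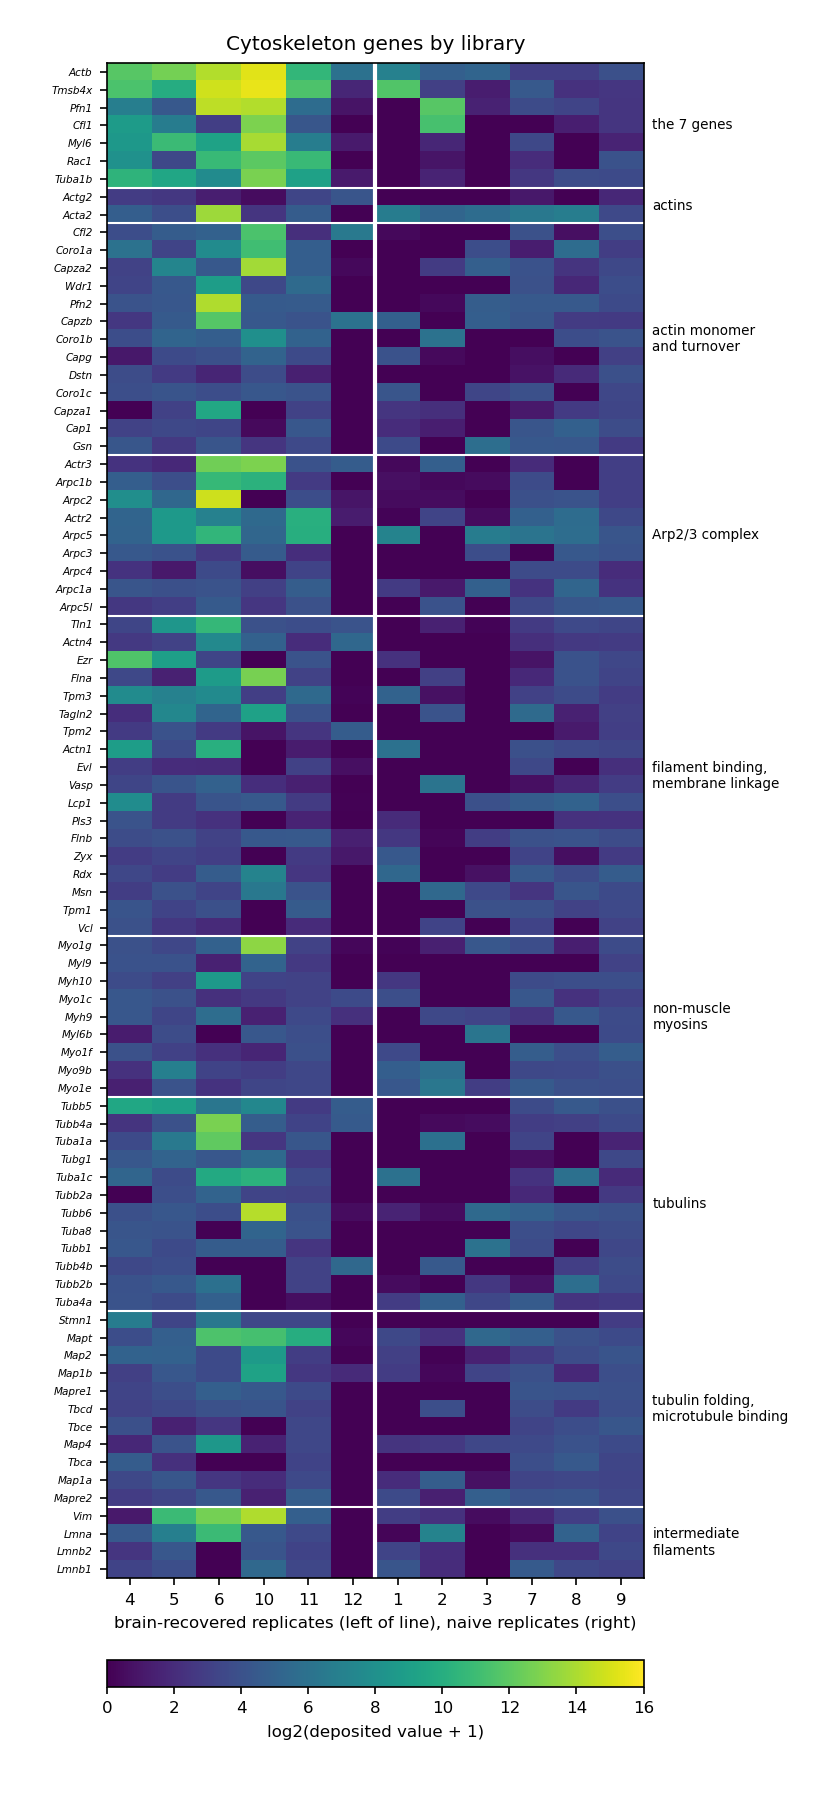
log2(value + 1) of the 7 genes and of 78 of the other cytoskeleton genes, 1 row per gene grouped by role, in brain-recovered libraries (left of the white line) and naive libraries (right). Replicate 12 is the darkest brain-recovered library in each of the 7 top rows, Cfl1 is also dim in replicate 6 and Rac1 in replicate 5, and of the other rows most bright cells lie in replicates 6 and 10.

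Markers of the labelled cells and of others the brain could supply were read in the same libraries. Of 10 genes of haematopoietic stem and progenitor cells, all usable, Kit stood at 0 to 13.9 units in brain-recovered and at 0 to 11 units in naive libraries, and Cd34 reached 3.17 units in brain-recovered and 23.7 units in naive libraries, beside a median value above 0 of 10.8 to 12.6 units in the 12 libraries. The summed level of the list was 57.3 to 35190 units (median 96.8) in brain-recovered and 44.1 to 109 units (median 85.4) in naive libraries, and 35095 units of it was Ly6a in replicate 6. In brain-recovered replicate 11 the sum was 1493 units, 1335 units of it Myb. Myb and Cd34 were entries without a fitting length. The 5 granule genes of myeloid progenitors summed to 122 to 94951 units in brain-recovered and to 1.31 to 27.9 units in naive libraries, and 3 of them (Mpo, Elane and Srgn) were higher in brain-recovered libraries in the limma fit, Elane without a fitting length. The 5 leukocyte genes, which include Coro1a and Rac2, summed to 0.116 to 3092 units in brain-recovered and to 5.44 to 67.0 units in naive libraries.

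Genes of brain and vessel cells were high in some of the brain-recovered libraries where the cytoskeleton genes were high and not in others. The 7 oligodendrocyte genes summed to 6179, 7434, 29154, 37.0, 306 and 53.0 units in brain-recovered replicates 4, 5, 6, 10, 11 and 12 and to 16.6 to 86.8 units in naive libraries. In brain-recovered replicate 10, where 6 of the 7 genes had their highest value, oligodendrocyte genes thus stood in the naive range, while 8 usable genes of microglia and macrophages summed to 21246 units there, 19416 units of it C1qa. That list summed to 3101 units in brain-recovered replicate 6, to 2.08 to 104 units in the other brain-recovered libraries and to 5.34 to 185 units in naive ones. Endothelial genes (6 usable) summed to 54.1, 82.5, 14413, 6520, 52.0 and 1.90 units in brain-recovered replicates 4, 5, 6, 10, 11 and 12 and to 50.8 to 141 units in naive libraries. Ly6c1, an entry without a fitting length, made up 13010 units of the sum in replicate 6 and 6464 units in replicate 10. Mural and smooth muscle genes (6, Acta2 among them) summed to 80.2, 1193, 20220, 90.6, 62.7 and 26.9 units in the same brain-recovered libraries and to 55.4 to 155 units in naive ones. In brain-recovered replicates 4 and 11, where 7 and 5 of the 7 genes were at 100 units or more, the microglial, endothelial and mural sums lay within the naive range. Other sums lay above their naive range in both. Of brain cells, these were oligodendrocyte genes at 6179 and 306 units and astrocyte genes at 1049 and 116 units. Of blood cells, these were granule genes at 309 and 5052 units and leukocyte genes at 3092 and 134 units. Mature lineage genes, at 70.9 and 99.5 units, also did so in both. Neuron genes, at 413 and 80.8 units, did so in replicate 4 alone, as did erythroid genes, at 77.0 units there. Stem and progenitor genes did so in replicate 11 alone, at 1493 units. Astrocyte genes (6 usable) summed to 5.25 to 2218 units in brain-recovered and 25.0 to 87.3 units in naive libraries, and neuron genes (7 usable, Map2 among them) to 8.10 to 446 and 0.0459 to 124 units. Erythroid genes (6 usable) summed to 0 to 2324 units in brain-recovered and 0 to 52.4 units in naive libraries, and mature lineage genes (6 usable) to 0.124 to 10711 and 1.24 to 64.4 units, where 10707 units in brain-recovered replicate 10 were Itgam, an entry without a fitting length. No usable marker was at 0 in all libraries of either group, and none of these lists besides the granule genes had a gene past the limma threshold. The part of other cell types in the cytoskeleton values was not tested.

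Outside the cytoskeleton, Serinc3, Hspa1b, 2410006H16Rik and Gm20638 were among the 5 entries of fitting length whose log2 values followed the mean of the 7 genes most closely over the 12 libraries, with Pearson correlations of 0.938, 0.932, 0.932 and 0.928. These are descriptions over libraries that differ in depth and in entries detected, chosen as the highest among all such entries. Serinc3, a membrane protein, stood at 1552, 242, 7094, 15942, 148 and 0.412 units in brain-recovered replicates 4, 5, 6, 10, 11 and 12. It stood at 0.186, 1.57, 0.257, 18.1, 10.2 and 11.5 units in naive replicates 1, 2, 3, 7, 8 and 9. Like Actb and Myl6, Serinc3 was highest in brain-recovered replicate 10 and lowest among the brain-recovered libraries in replicate 12.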

How the data were processed

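RNA was measured in 12 libraries, grouped by their titles. Per the labels' protocols, lysate was turned straight into cDNA by a low-input kit with template switching, amplified by PCR and tagged with Nextera XT. Such amplification can lose or inflate single transcripts. Per the submitters' processing notes, Trimmomatic 0.32 and GRCm38 were used. Which aligner, counter and annotation were used is not given in the sources used here. For every entry and library the authors deposited 1 value, a signal for which the header names no unit. It is read here as coverage, since the deposited values of 24385 of 24388 entries above 0 are whole reads (within 0.004 of a read plus 3e-05 of their number) over 1 length per entry, times 1 constant per library. The constant does not follow the number of reads, so the values are not RPKM (reads per kilobase and per 1000000 reads), to which they were rescaled as an alternative chosen after seeing the data. It leaves the median value above 0 at 10.8 to 12.6 in the 12 libraries.

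Lengths were compared with GENCODE M21 transcripts. Of 22543 entries that could be checked, 62.3% fitted their label, against 0.812% when set against the gene of the next row. Labels were not used in 24 runs of at least 10 mismatches in alphabetical order of symbol (1080 entries). They were also not used where the length was the summed exon length of a gene up to 40 places away in that order. Labels with a length over 2 times that of the labelled gene were left out as well. This left 21169 usable labels, 7121 without a fit. This check was built with the data in view, and outside these cases labels were kept as deposited.

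Groups were compared with limma 3.58.1 in R 4.3.3 (trended eBayes, no covariates, no further scaling) on log2(value + 1), which understates changes of low genes, for entries at 1 or more in 6 or more libraries, adjusted by Benjamini-Hochberg with a threshold of 0.05. The prior weight was infinite, so each SE and p comes from a spread shared by entries of like level and not from the gene's own. The procedure was tested on simulated data, normal values whose spread followed the level alone and was equal in both groups. They held no single library set apart, so the test does not cover such cases. The named genes are the 7 found and, in each of 9 lists, any gene passing the threshold and the 2 largest absolute differences. The count of 1 list and the values of 1 gene with a like pattern are not reported here. Genes named beyond that rule are said so where they appear, or were named by a count. The genes and lists were chosen with earlier results of these data known. Other steps ran in Python 3.11.15 with pandas 2.3.3, numpy 2.4.6, matplotlib 3.10.9 and scipy 1.17.1. Promoter sequences are from RefSeq. Alternatives to the pseudocount, filter, scaling, variance model, library set and label rule are given in the closing section. A 0 is given as listed, because genes used by every cell are also at 0 in some libraries.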

Additional observations from a re-analysis of the deposited data

Results flagged for a closer look

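Among 14 sets of 6 log2 values (7 genes in 2 groups), 3 held a library set apart from the rest by more than Dixon's 95% critical value, all of them naive. For independent, normally distributed values about 1 set in 20 passes that critical value. The sets here hold values at 0 and share libraries, so that rate need not apply. Tmsb4x in naive replicate 1 was at 3261 units, with a gap of 0.692 of the group's range to the next library. Cfl1 in naive replicate 2 was at 2602 units (gap 0.781 of the range), and Pfn1 in the same library was at 3631 units (gap 0.690 of the range). Both libraries had fewer than 10000 entries above 0.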

How the results depend on the processing

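The median log2 difference of the 7 genes was above 0 under every alternative run, between 4.48 (with RPKM) and 7.99 (without brain-recovered replicate 12), and no gene of the 7 changed direction. The genes were chosen on this difference and every alternative reuses these libraries, so the constant direction is a description only. The median over all entries shifted with the scaling, to -0.06 with quantile normalization, -0.28 with values scaled to library totals and -0.53 with RPKM (an alternative chosen after seeing the data), against 0.64 with the authors' scaling, and that of the 98 other cytoskeleton genes to 0.39, 0.05 and -0.20. Entries higher in brain-recovered libraries by limma numbered 65, and 33 with a filter of at least 10 units, 0 with quantile normalization (557 higher and 497 lower at an unadjusted p under 0.05), 0 with library totals (196 and 381), 0 with RPKM (161 and 575), 115 without a variance trend, 6010 in libraries numbered 1 to 6 alone (1 lower), 0 in those numbered 7 to 12 alone (181 and 825) and 2 without the libraries of fewer than 10000 entries. Leaving out 1 library gave 36 to 226: 226 without brain-recovered replicate 12, 40, 41 and 39 without brain-recovered replicates 5, 6 and 11, and 39, 36 and 40 without naive replicates 1, 8 and 9. Of the other cytoskeleton genes none passed in the reported fit, 3 passed without a variance trend (Vim, Actr3 and Tubb5) and 25 in libraries numbered 1 to 6 alone. Leaving out 1 library gave 0 to 7: 7 without brain-recovered replicate 12 (Vim, Arpc1b, Tubb5, Actr3, Rhoc, Stmn1 and Arhgdib), 1 without brain-recovered replicate 4 (Vim) and 1 without naive replicate 2 (Actr3). Acta2, at -2.54 to 0.19 with 1 library left out, changed sign to 0.19 without brain-recovered replicate 12, 1.59 in libraries 1 to 6 alone and 0.35 without the libraries of fewer than 10000 entries, where Cfl2, Actn4, Tubb5 and Actg2 stood at 2.58, 1.53, 2.99 and 1.19. In libraries 7 to 12 alone, Rhoc stood at -1.51 and Lmna at -0.23. The causes were not tested. No paired analysis was possible because the 2 groups share no replicate number. Genes with few reads in a library, such as Myl6 with 0 to 5 reads in naive libraries, cannot show small differences at this depth.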
